A study of Saccharomyces cerevisiae with 30 samples.

Results

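The calling card libraries of Mit1 and Sfl1, 2 of the 30 samples of the series, were set directly against each other. In a calling card experiment a transcription factor is joined to a protein that draws the Ty5 retrotransposon to the DNA, so that new Ty5 insertions mark where the factor sits. Per the labels, both libraries came from yeast in a synthetic medium low in ammonium in which Ty5 was switched on with 2% galactose, and they differ in the factor alone; the series names Σ1278b as the strain, which forms filaments on little nitrogen. The labels give each factor by name without saying how its fusion was expressed. Each factor had 1 library, so every interval and test below covers counting error only and compares these libraries, with no replicate check. Insertions were counted in the 1200 bp upstream of each start codon and in 1-kb bins of each chromosome, and are given as a share of all insertions of the library. A pair of RNA libraries, 1 from nitrogen-starved and 1 from rich medium, were used for the expression of the bound genes.

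Mit1 belongs to the WOPR family, DNA-binding regulators of fungal morphology named in part for Wor1 of Candida albicans, and is needed for pseudohyphal growth. Sfl1 carries a DNA-binding domain like that of heat shock factor and represses flocculation genes by bringing in the Tup1–Cyc8 corepressor. Both act on FLO11, the gene of the cell surface adhesin that holds filaments together. The flocculins FLO1, FLO5, FLO9 and FLO10 encode related adhesins and lie near chromosome ends.

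The Mit1 library held 14259 insertions from 1534525 reads at 10350 distinct positions, and the Sfl1 library 10195 insertions from 1988040 reads at 9527 positions. In the Mit1 library 40.0% of insertions lay in its 10 fullest bins, against 33.9% in the Sfl1 library. A floor of 3 insertions, used for the fold of a gene with none, was 0.0210% of the Mit1 library and 0.0294% of the Sfl1 library. The Mit1 insertions had a median of 8 reads and 29.2% of them had 1 read, whereas the Sfl1 insertions had a median of 46 reads and 11.1% had 1 read. Of the Mit1 insertions 20.1% lay at a position where another of the 28 calling card libraries had at least 10 times more reads, against 7.06% of the Sfl1 insertions. The other libraries include the compared factor, and reads were not scaled to depth, so this measure is not independent of the comparison. Results that rest on such positions are given with and without them. Only 838 positions occurred in both libraries, 8.10% of the Mit1 positions and 8.80% of the Sfl1 positions. Sfl1 had at least 10 times more reads at 239 of these and Mit1 at 136.

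Of the 6444 genes with coordinates, 298 had at least 10 insertions over both libraries and were tested, and 2848 had none. A gene was called where Fisher's exact test gave an adjusted p of at most 0.05 and the shares differed at least 3-fold. Mit1 was higher at 59 genes (19.8% of those tested) and Sfl1 at 110 (36.9%). Neighbours share upstream DNA, and with overlapping windows merged these were 40 loci higher in Mit1 and 73 higher in Sfl1. Among all tested genes the median ratio of the Mit1 share to the Sfl1 share was 0.511, a log2 ratio of -0.97. The split of the calls depends on the total that the shares are taken of: per insertion in upstream windows alone, 72 genes were higher in Mit1 and 84 in Sfl1, so Mit1 took 46.2% of the calls against 34.9% with the whole libraries, and the median moved up by 0.41 on the log2 scale. With the 25 bins left out of the total that held over 1% of either library, the numbers were 73 and 77, a Mit1 share of 48.7%, and the median moved up by 0.53. Lines that repeat a position were 27.4% of the Mit1 and 6.55% of the Sfl1 insertions, and the split depends on them too. With each position counted once, 66 genes were higher in Mit1 and 85 in Sfl1, a Mit1 share of 43.7%. All changes of level below are relative to the whole libraries. Of the 59 genes higher in Mit1, 51 had a p-value of at most 0.001 for Mit1 in the authors' deposited table, and 48 of the 110 higher in Sfl1 had one for Sfl1.

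**Figure D1:**
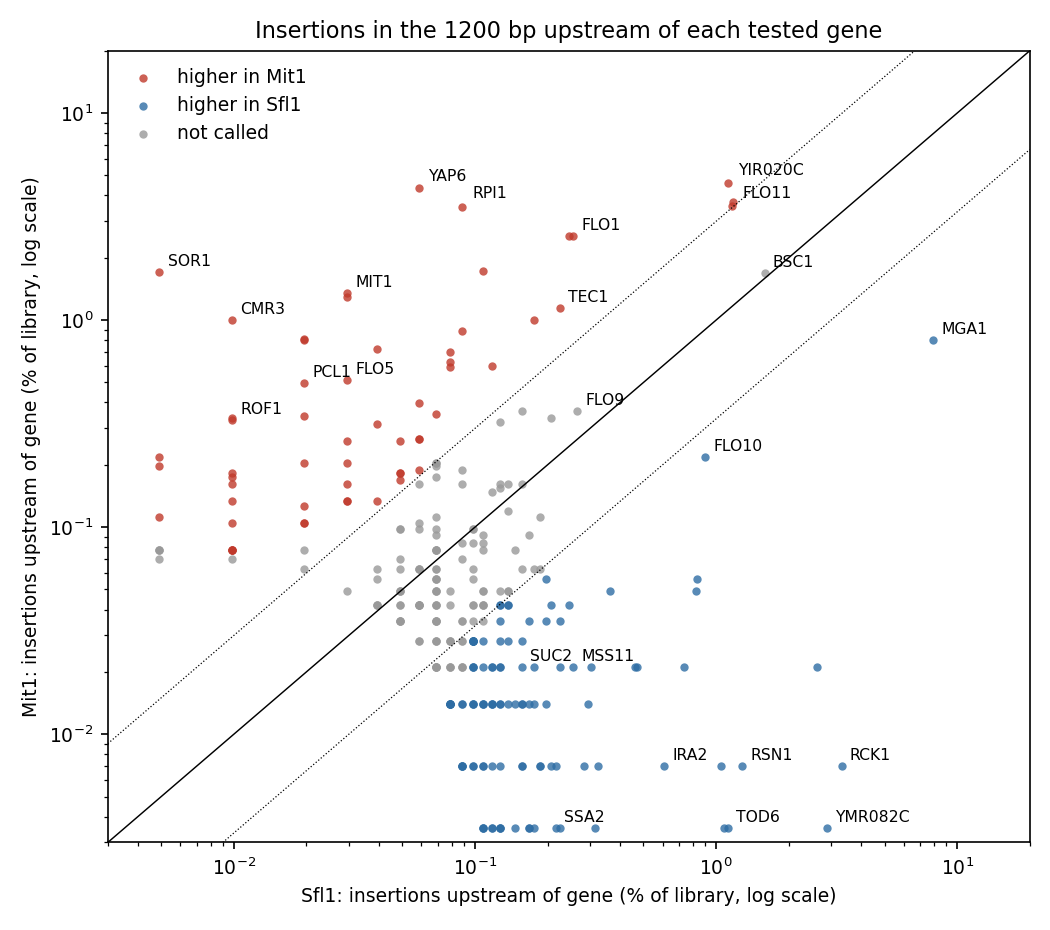
Share of each library in the 1200 bp upstream of each of the 298 tested genes, Mit1 on the vertical and Sfl1 on the horizontal axis, both in percent on log scales; red points were higher in Mit1, blue in Sfl1 and grey ones were not called. A count of 0 is drawn as 0.5 insertions; the solid line marks equal shares and the dotted lines a 3-fold difference. YAP6 and MGA1 lie far from the line on opposite sides, and BSC1 lies on it.

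The flocculin genes were divided between the factors. Of the 7 flocculin and adhesin genes 5 were tested: FLO1, FLO5 and FLO11 were higher in Mit1, FLO10 was higher in Sfl1 and FLO9 was not called, beside 19.8% of all tested genes higher in Mit1 and 36.9% in Sfl1. The mating adhesin genes AGA1 and FIG2 had 0 insertions in either library. The median log2 ratio of the 5 tested genes was 1.60, beside -0.97 over all tested genes.

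FLO11 lies on the Crick strand of chromosome 9, from 372339 to 375971 in the coordinates of the deposited files, whose genome build is not given in the sources used here. Its window held 505 Mit1 insertions, 3.54% of the library, and 119 Sfl1 insertions, 1.17%, a ratio of 3.03 (95% interval of the odds ratio 2.54 to 3.84; Fisher's exact test, adjusted p = 8.3e-33). Both factors were thus abundant there, and the ratio stands just above the 3-fold threshold; with each position counted once it was 2.19 and the gene was not called. With positions richer in another library left out, 495 Mit1 and 103 Sfl1 insertions remained.

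The profiles of Mit1 and Sfl1 over the long FLO11 upstream region overlapped but differed in shape. Of the 112 Sfl1 positions in the window, 58 were also Mit1 positions. In the 600 bp next to the start codon there were 11 Mit1 and 28 Sfl1 insertions, a ratio of 0.281 (odds ratio interval 0.126 to 0.581), so that the direction was turned round. From 600 to 1200 bp upstream there were 494 Mit1 and 91 Sfl1 insertions, a ratio of 3.88 (3.18 to 5.05). From 1200 to 2200 bp, beyond the window, there were 253 Mit1 and 66 Sfl1 insertions, a ratio of 2.74 (2.10 to 3.70). Mit1 formed 1 mound with 284 insertions in its fullest 200 bp, from 1000 to 1200 bp. Sfl1 was spread more evenly, with 40 insertions from 600 to 800 bp, 36 from 1000 to 1200 bp, 8 from 1200 to 1400 bp and 18 from 1400 to 1600 bp. From 2000 to 2200 bp Mit1 had 2 insertions and Sfl1 11. The median distance from the start codon within the window was 1019 bp for Mit1 and 779 bp for Sfl1.

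The short open reading frames YIR020C and YIR020W-A lie inside this upstream region, and their windows take in much of the same DNA. YIR020C had 655 Mit1 and 114 Sfl1 insertions, a ratio of 4.11. When the FLO11 window was stopped at the nearest gene, which is YIR020C, Sfl1 was higher at FLO11 (ratio 0.238). The direction at FLO11 therefore depended on how much of the upstream region was counted. Mit1 insertions were also dense on the other side of the gene: past the FLO11 stop codon, in 371001 to 372338 of chromosome 9, there were 593 Mit1 and 34 Sfl1 insertions, a ratio of 12.5 (9.17 to 18.9).

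**Figure D2:**
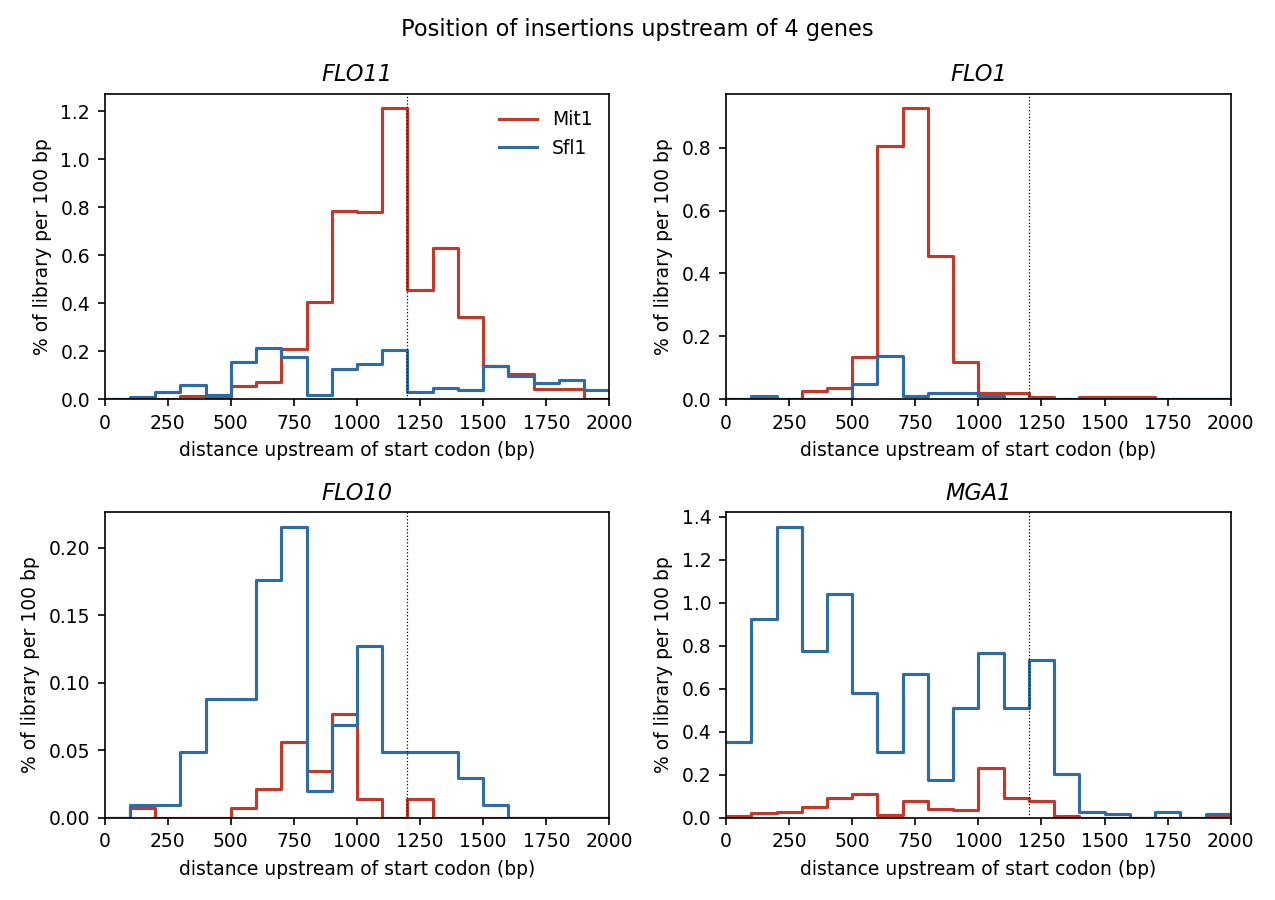
Insertions per 100 bp upstream of the start codons of FLO11, FLO1, FLO10 and MGA1, in percent of each library, Mit1 in red and Sfl1 in blue, with distance in bp on the horizontal axis; the dotted line marks the end of the 1200 bp window. At FLO11 Sfl1 is the higher factor next to the gene and Mit1 farther out, while FLO1 is dominated by Mit1 and FLO10 and MGA1 by Sfl1.

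FLO1 and FLO5 were mostly Mit1 genes. FLO1, on chromosome 1 from 191344 to 194724, had 363 Mit1 insertions (2.55% of the library) and 26 Sfl1 insertions (0.255%), a ratio of 9.98 (6.85 to 15.9; Fisher's exact test, adjusted p = 3.3e-54). FLO5, on chromosome 8 from 535080 to 538307, had 73 Mit1 and 3 Sfl1 insertions, a ratio of 17.4 (5.75 to 86.8; Fisher's exact test, adjusted p = 5.5e-13). At FLO1 the Sfl1 insertions lay somewhat nearer the start codon. The median distance was 766 bp for Mit1 (quartiles 679 and 798 bp) and 661 bp for Sfl1 (604 and 692 bp). Even so, 16 of the 26 Sfl1 positions were also Mit1 positions.

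FLO10 went the other way. This gene, on chromosome 11 from 657695 to 660718, had 31 Mit1 insertions (0.217%) and 92 Sfl1 insertions (0.902%), a ratio of 0.241 (0.154 to 0.363; Fisher's exact test, adjusted p = 8.9e-13). Without the bins over 1% in the totals its ratio was 0.348, and it was not called. FLO9, on chromosome 1 from 10861 to 11783, had 52 Mit1 and 27 Sfl1 insertions, a ratio of 1.38 (0.849 to 2.28; adjusted p = 0.28 by Fisher's exact test), and within 600 bp of the start codon the ratio was 0.390. In the authors' deposited table FLO9 had p-values listed at 0 for both factors, while FLO5 had one listed at 0 for Mit1 and 0.295 for Sfl1. FLO1, FLO10 and FLO11 also had deposited p-values of at most 0.001 for both factors. The direction of a call here thus does not mean that the other factor was absent. FLO1, FLO5 and FLO9 are near-identical copies in part, and how reads that fit several copies were placed is not given in the sources used here, so the split of insertions among these genes is uncertain.

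**Figure D3:**
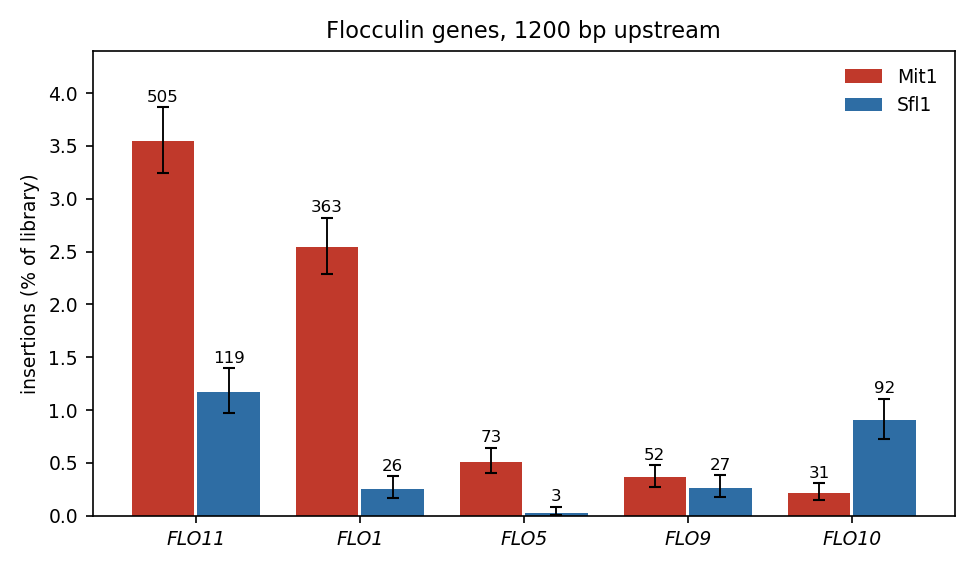
Share of the Mit1 (red, left) and Sfl1 (blue, right) insertions in the 1200 bp upstream of 5 flocculin genes, in percent of each library, with exact Poisson 95% intervals and the number of insertions above each bar. Mit1 is higher at FLO11, FLO1 and FLO5 and Sfl1 at FLO10; the intervals overlap at FLO9.

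The genes of the regulators themselves were also divided. MIT1 had 193 Mit1 insertions upstream of its own start codon (1.35%) and 3 Sfl1 insertions (0.0294%), a ratio of 46.0 (15.7 to 228; Fisher's exact test, adjusted p = 1.1e-39). SFL1 had 1 insertion in each library in its upstream window, too few to test. Inside the SFL1 gene, the bin from 586001 to 587000 of chromosome 15 held 0 Mit1 and 10 Sfl1 insertions. This bin was called higher in Sfl1 (Fisher's exact test, adjusted p = 0.00038). ROF1, the gene of the other WOPR protein of this yeast, had 47 Mit1 insertions and 1 Sfl1 insertion, a ratio of 33.6 with an odds ratio interval from 5.76 to 1360. MSS11, whose product works with Flo8 at FLO11, was the opposite case with 3 Mit1 and 26 Sfl1 insertions, a ratio of 0.0825 (0.0159 to 0.269; Fisher's exact test, adjusted p = 5.6e-07). FLO8 with 6 and 1 insertions and MFG1, the gene of a further partner, with 2 and 0 in the Mit1 and Sfl1 libraries were not tested.

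MGA1, which encodes another protein with a domain like that of heat shock factor and a regulator of filamentous growth, had the most Sfl1 insertions of any gene and the smallest p, though RCK1, RSN1 and others differed by a larger ratio. It lies on the Watson strand of chromosome 7 from 975411 to 976781. Its window held 114 Mit1 insertions (0.799%) and 811 Sfl1 insertions (7.95%), a ratio of 0.101 (0.0758 to 0.114; Fisher's exact test, adjusted p = 3.4e-191). Of the 101 Mit1 positions there, 83 were also Sfl1 positions, and 58 of the 114 Mit1 insertions remained when positions richer in another library were left out, with 786 of the 811 Sfl1 insertions. That rule also leaves out Mit1 positions that were richer in Sfl1 itself, so these counts are no separate check of the difference. The other genes of this family, SFL1, SKN7, HMS2 and HSF1, had at most 5 insertions each in their upstream windows over both libraries.

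The pattern at MGA1 was reversed past its end. In the 1-kb bin from 977001 to 978000, between the convergent genes MGA1 and RIE1, there were 881 Mit1 insertions (6.18%) and 171 Sfl1 insertions (1.68%), a ratio of 3.68 (3.27 to 4.58; Fisher's exact test, adjusted p = 5.8e-72). With each position counted once there were 443 Mit1 and 159 Sfl1 positions, still more for Mit1 but below the 3-fold threshold. The median Mit1 insertion lay 541 bp past the MGA1 stop codon, and the medians of the factors were 20 bp apart. Of the 159 Sfl1 positions in this bin, 132 were also Mit1 positions. With positions richer in another library left out there were 850 Mit1 and 127 Sfl1 insertions. In the bin from 976001 to 977000, which holds the end of MGA1, neither factor was called, with 57 Mit1 and 23 Sfl1 insertions.

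Of the 28 factor genes of the series, 13 were tested, and 5 were higher in Mit1, 3 in Sfl1 and 5 not called, beside 19.8% and 36.9% of all tested genes for Mit1 and Sfl1. YAP6, the gene of a bZIP factor, had the most Mit1 insertions of these, 623 (4.37%) against 6 of Sfl1 (0.0589%), a ratio of 74.2 (35.4 to 212; Fisher's exact test, adjusted p = 4.5e-135), and 594 Mit1 insertions remained without positions richer elsewhere. RLM1, the gene of a MADS-box factor of cell wall stress, was higher in Sfl1 with 2 Mit1 and 16 Sfl1 insertions, a ratio of 0.0894 (0.00995 to 0.380). GCN4, the gene of the activator of amino acid synthesis, had 11 Mit1 insertions and 1 Sfl1 insertion, a ratio of 7.86 (1.14 to 339). It shares its upstream DNA with MIT1. Most of the GCN4 Mit1 insertions, with a lower quartile of 976.5 bp from its start codon, lay in the MIT1 window too and were counted for both genes. GCN4 was not called with 600 bp windows or with the window stopped at the nearest gene.

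TEC1 and PHD1 completed the factor genes higher in Mit1, but their Mit1 insertions were of low read number. TEC1, the gene of the filamentation pathway factor, had 163 Mit1 and 23 Sfl1 insertions, a ratio of 5.07 (3.29 to 8.30). The Mit1 insertions there had a median of 1 read, and only 1 remained when positions with 10 times more reads in another library were left out; 11 Sfl1 insertions remained, the ratio was 0.0756 and TEC1 was then higher in Sfl1. PHD1, an APSES factor gene, had 19 Mit1 insertions, of which 4 remained, and 3 Sfl1 insertions, of which 3 remained. The median distance of these Mit1 insertions was 1061 bp, and the window overlaps that of MMO1, which had 45. PHD1 was not called with 600 bp windows or with the window stopped at the nearest gene. Its relative SOK2 was not called, with 25 Mit1 insertions, of which 2 remained, and 7 of Sfl1, of which 3 remained; with at least 2 reads its ratio was 0.513.

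The same measure divided the remaining Mit1 loci. Of the 59 genes higher in Mit1, 44 were still called without the positions richer elsewhere, and 15 were lost, among them TEC1, PHD1, CIN5, TUB4, PCL1, CWP2 and STB3. At 16 of the 59 genes at least 50% of the Mit1 insertions lay at such positions and at 8 genes at least 90% did. At 14 genes the median insertion had at most 2 reads. Of the 110 genes higher in Sfl1, 89 were still called, and at 0 of them did such positions hold 50% of the Sfl1 insertions. Whether these Mit1 insertions came from other libraries was not tested.

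**Figure D4:**
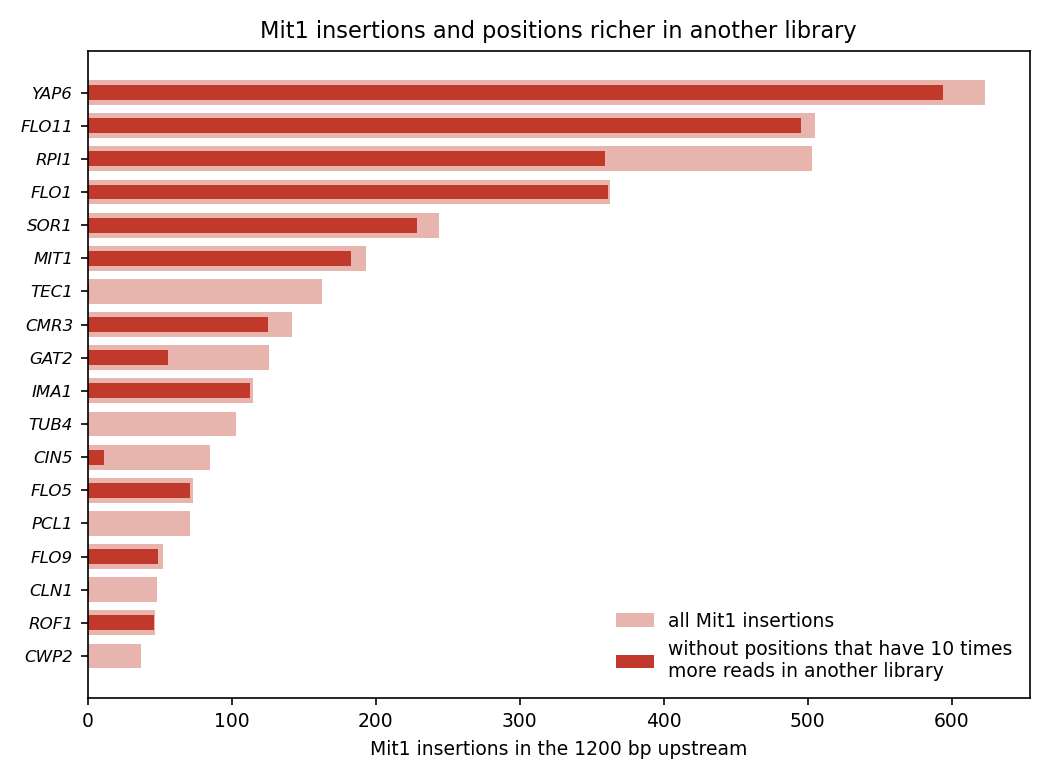
Mit1 insertions in the 1200 bp upstream of 18 genes, with all insertions as pale bars and those left without positions that had at least 10 times more reads in another library as dark bars; FLO9 and CLN1 were not called higher in Mit1. YAP6 keeps 594 of 623 insertions and FLO1 361 of 363, while TEC1 keeps 1 of 163 and TUB4 0 of 103.

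Among the loci still called higher in Mit1 without those positions, the divergent pair RPI1 and RHO3 on chromosome 9 followed YAP6 in the order of p. RPI1, whose product is a regulator tied to Ras signalling and the cell wall, had 503 Mit1 and 9 Sfl1 insertions, a ratio of 40.0 (21.6 to 91.1), with 359 and 5 left without positions richer elsewhere. RHO3 kept 135 of its 245 Mit1 insertions. SOR1, the gene of sorbitol dehydrogenase, had 244 Mit1 insertions and 0 Sfl1 insertions, a share at least 58.2-fold higher in Mit1 with the Sfl1 count set to the floor of 3. CMR3 had 142 Mit1 insertions and 1 Sfl1 insertion, a ratio of 102 (18.1 to 4079). The divergent maltose and isomaltose genes MAL13 and IMA1 shared most of their insertions, and IMA1 had 115 Mit1 and 2 Sfl1 insertions, of which 113 and 2 remained. GAT2, the gene of a zinc finger protein of the GATA family, had 126 Mit1 and 9 Sfl1 insertions, of which 56 and 6 remained. YHR212W-A, beyond FLO5 on chromosome 8, had 143 and 18 insertions in the Mit1 and Sfl1 libraries, of which 140 and 15 remained.

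TUB4, PCL1 and CIN5 were the opposite case. TUB4, the gamma-tubulin gene, had 103 Mit1 insertions and 4 of Sfl1, and 0 and 1 of them remained. PCL1, a cyclin gene, had 71 Mit1 and 2 Sfl1 insertions, with 0 and 1 left. CIN5, whose product can recruit Tup1 and is a relative of Yap6, had 85 Mit1 and 8 Sfl1 insertions, with 11 and 3 left.

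The leading loci higher in Sfl1 had at most 8 Mit1 insertions, apart from MGA1 and FLO10. RCK1, a protein kinase gene, had 1 Mit1 and 338 Sfl1 insertions (3.32% of the Sfl1 library), a ratio of 0.00212 (5.2e-05 to 0.0115; Fisher's exact test, adjusted p = 2.7e-126). The window of YMR082C, which overlaps that of ISF1, had 0 Mit1 and 293 Sfl1 insertions, a share at least 137-fold lower in Mit1 with its count set to 3. TOD6, the gene of a repressor of ribosome biogenesis genes, had 0 and 114 insertions in the Mit1 and Sfl1 libraries, at least 53.1-fold lower in Mit1. These 3 loci each kept at least 112 Sfl1 insertions without positions richer elsewhere.

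IRA2, which encodes an inhibitor of Ras and so bears on the cAMP pathway that controls FLO11, had 1 Mit1 and 62 Sfl1 insertions, a ratio of 0.0115 (0.000286 to 0.0663; Fisher's exact test, adjusted p = 1.1e-21). It was the only gene tested of 14 cAMP and protein kinase A genes. ADH3, the mitochondrial alcohol dehydrogenase gene, had 3 Mit1 and 75 Sfl1 insertions, RSM7, a mitochondrial ribosomal protein gene, 3 and 48, and PUF3, whose product binds mRNAs of mitochondrial proteins, 1 and 33. RSM7 shares upstream DNA with YJR115W, which had 47 Sfl1 insertions, and PUF3 with YEH1, which had 32. The median Sfl1 insertion lay 287.5 bp from YJR115W and 601.5 bp from RSM7. At the other pair it lay 228 bp from YEH1 and 589 bp from PUF3. Which gene of each pair the insertions belong to was not tested. APJ1, a co-chaperone gene, had 1 Mit1 and 29 Sfl1 insertions, RSN1 had 1 and 131, and FMP48 had 8 and 85.

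Lists of other pathways held few tested genes, and their counts stand beside the 19.8% of all tested genes that were higher in Mit1 and the 36.9% higher in Sfl1; with so few, nothing is read from them about a list. Of 20 cell wall protein genes 8 were tested, and 4 were higher in Sfl1 and 1 in Mit1, with a median log2 ratio of -1.71 beside -0.97 over all tested genes. SPI1, a wall protein gene of starved and stressed cells, had 0 Mit1 and 11 Sfl1 insertions, at least 5.13-fold lower in Mit1; CIS3 had 5 and 17, YGP1 2 and 12 and CWP1 4 and 11. CWP2, the 1 wall gene higher in Mit1, had 37 Mit1 and 5 Sfl1 insertions, and 0 and 3 of them remained without positions richer elsewhere. CWP1 was not called with either other total or without positions richer elsewhere. Of the 4 wall genes higher in Sfl1, only SPI1 had a p-value of at most 0.001 for Sfl1 in the authors' deposited table.

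Of 17 heat shock and chaperone genes 2 were tested and both were higher in Sfl1, with a median log2 ratio of -3.51 beside -0.97 over all tested genes. SSA1, which encodes a cytosolic Hsp70, had 2 Mit1 and 18 Sfl1 insertions, a ratio of 0.0794 (0.00892 to 0.331), and its relative SSA2 had 0 and 22, at least 10.3-fold lower in Mit1. HSF1 itself had 0 insertions in either library. Of 13 genes of hexose use 4 were tested and 2 were higher in Sfl1, beside 36.9% of all tested genes. SUC2, the invertase gene, had 3 Mit1 and 16 Sfl1 insertions, a ratio of 0.134 (0.0250 to 0.468). RGT2, a glucose sensor gene, had 4 and 10, a call that was lost with either other total and without positions richer elsewhere. Of 10 genes of the Tup1 corepressor and of glucose repressors 3 were tested; CIN5 was higher in Mit1, SUT1, with 2 Mit1 and 20 Sfl1 insertions, in Sfl1.

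Few genes of growth and division had enough insertions to test. Of 11 cyclin genes 6 were tested, PCL1 was higher in Mit1 and 5 were not called; CLN1 had 48 Mit1 and 21 Sfl1 insertions, of which 1 and 16 remained without positions richer elsewhere, and its ratio was then 0.0520. Of 16 filamentation kinase pathway genes 2 were tested and TEC1 was called. Of 9 genes of daughter-cell separation DSE4, a glucanase gene, was the only one tested, with 16 Mit1 and 0 Sfl1 insertions, at least 3.81-fold higher in Mit1, and 14 Mit1 insertions remained. Of 16 ribosomal protein genes 1 was tested and it was not called.

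Much of the Mit1 library lay outside upstream windows. Gene bodies held 13.6% of the Mit1 insertions and 18.7% of the Sfl1 insertions, and DNA outside gene bodies within 1200 bp upstream of a gene held 46.9% (exact binomial 95% interval 46.1 to 47.8) and 62.5% (61.5 to 63.4). DNA outside gene bodies and these windows, within 1200 bp after a stop codon, held 21.6% (20.9 to 22.3) of the Mit1 insertions and 8.99% (8.45 to 9.57) of the Sfl1 insertions. The remaining DNA held 17.8% and 9.87% of the Mit1 and Sfl1 libraries. By chromosome, Mit1 had 14.6% of its insertions on chromosome 1 and Sfl1 1.48%, while chromosome 13 held 3.19% of Mit1 and 11.6% of Sfl1 insertions.

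In 1-kb bins, which need no gene annotation, 236 bins were tested, 65 (27.5%) were higher in Mit1 and 71 (30.1%) in Sfl1. Adjacent bins called the same way made 46 regions higher in Mit1 and 56 higher in Sfl1. In 9 of the Mit1 regions and 2 of the Sfl1 regions less than 50% of the insertions of the higher factor lay in any upstream window. Of the Mit1 regions of this kind, 3 lie near flocculin genes at chromosome ends. On chromosome 1, between SWH1 and the gene next to FLO1, YAR047C, the stretch from 186001 to 189000 held 894 Mit1 insertions (6.27%) and 8 of Sfl1 (0.0785%), a ratio of 79.9 (43.0 to 198), and that from 181001 to 183000 held 584 and 4, a ratio of 104 (42.2 to 401). On chromosome 8, past the end of FLO5, 541001 to 542000 held 736 Mit1 insertions (5.16%) and 12 of Sfl1 (0.118%), a ratio of 43.9 (26.3 to 89.8). Its median Mit1 insertion lay 3196 bp past the FLO5 end. These stretches kept 891, 584 and 734 Mit1 insertions without positions richer elsewhere.

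Other Mit1 regions lay between convergent genes. On chromosome 10, 13001 to 15000, around and past the end of the amino acid transporter gene AGP3 and facing AQY3, held 451 Mit1 and 3 Sfl1 insertions, a ratio of 107 (37.7 to 540). The deposited coordinates place both genes on another chromosome than their systematic names do, so the genes named there are uncertain. On chromosome 15, 26001 to 27000, between YOL155W-A and the wall protein gene HPF1, held 294 and 9, a ratio of 23.4 (12.4 to 52.6). The Sfl1 region without a gene that held the most Sfl1 insertions was on chromosome 9 from 408001 to 411000, between GTT1 and YPS6, with 217 Mit1 insertions (1.52%) and 842 Sfl1 insertions (8.26%), a ratio of 0.184 (0.147 to 0.200). Mit1 was also dense there by its own count, with 174 insertions left without positions richer elsewhere, but the medians of Mit1 and Sfl1 lay 253.5 bp apart. The windows of genes miss these insertions.

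**Figure D5:**
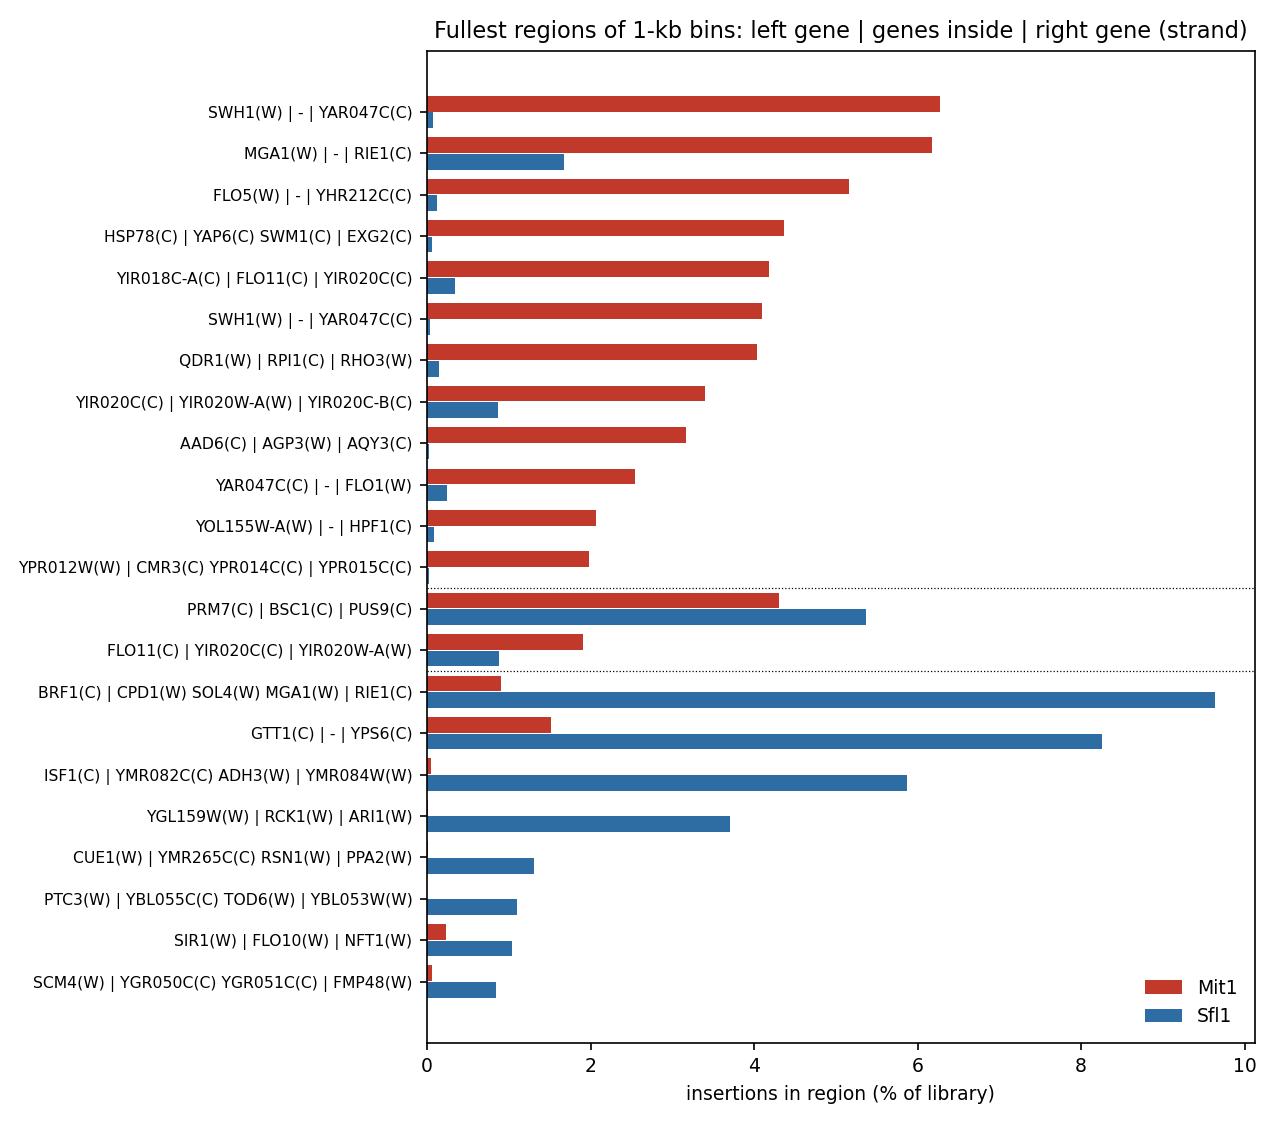
Share of the Mit1 (red, upper bar) and Sfl1 (blue, lower bar) insertions in the fullest regions of adjacent 1-kb bins, in percent of each library; each row names the gene to the left, the genes inside and the gene to the right, with W or C for the strand. The dotted lines separate 12 regions higher in Mit1, 2 regions that were not called and 8 regions higher in Sfl1; the region at MGA1 holds 9.64% of the Sfl1 insertions.

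A few places were full in both libraries. At BSC1 on chromosome 4, whose product resembles the Flo11 adhesin, there were 240 Mit1 insertions (1.68%) and 162 Sfl1 insertions (1.59%), a ratio of 1.06 (0.864 to 1.30; adjusted p = 0.68 by Fisher's exact test). Both factors were denser still beyond its window, with 378 Mit1 and 386 Sfl1 insertions from 1200 to 1800 bp upstream, a ratio of 0.700 (0.597 to 0.801). The region of both, 373001 to 375000, held 614 Mit1 insertions at 379 positions and 547 Sfl1 insertions at 452 positions, with 226 positions in common and medians 58.5 bp apart. With positions richer in another library left out, 514 Mit1 and 522 Sfl1 insertions remained. A ratio near 1 does not show that the factors bind equally.

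Within upstream windows the median distances from genes were similar for the factors. The fixed 1200 bp window limits these values, so no conclusion on placement is drawn from them. The median over loci of the median distance from the start codon was 543 bp for the 40 loci higher in Mit1 and 553 bp for the 73 loci higher in Sfl1. FLO11, at 1019 bp for Mit1, and MGA1, at 454 bp for Sfl1, lay on either side of these values. The FLO11 value was cut short by the window, as 253 more Mit1 insertions lay from 1200 to 2200 bp upstream.

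The deposited expression values, in RPKM (reads scaled to gene length and library depth), were compared as log2((starved + 1)/(rich + 1)), on which weakly expressed genes show too small a change; with 1 library per medium there is no test. A gene was counted if either medium gave 5 RPKM or more. The 49 such genes higher in Mit1 had a median change of 0.30, the 108 higher in Sfl1 0.06, and all 6006 genes 0.02. At least 2-fold higher in starved cells were 12 (24.5%) of the genes higher in Mit1 and 25 (23.1%) of those higher in Sfl1, beside 10.8% of all genes. The 12 included TEC1, PCL1, CWP2 and PHD1, whose calls were lost without positions richer elsewhere. CIN5 and TUB4, also lost, were below 2-fold. Neither the share nor the median was computed without such genes. At least 2-fold lower were 2 (4.08%) of the genes higher in Mit1 and 12 (11.1%) of those higher in Sfl1, beside 3.38% of all genes. The insertions were mapped in a different medium, low in ammonium, so the expression values are not from the same cells.

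Single genes went different ways. FLO11 had 54.9 RPKM in starved and 161 RPKM in rich medium, and MGA1 had 4.02 RPKM in starved and 16.1 RPKM in rich medium. MIT1 had 106 RPKM in starved and 89.2 RPKM in rich medium, and SFL1 89.3 RPKM in starved and 46.3 RPKM in rich medium. SUC2 had 153 RPKM in starved and 12.8 RPKM in rich medium, and SSA1 193 RPKM in starved and 53.1 RPKM in rich medium. FLO1, FLO5, FLO9 and FLO10 stayed between 3.05 and 9.45 RPKM in both media.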

How the data were processed

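The deposited insertion lists have no header, and their columns were read as chromosome, position and read count; the genome build, aligner and filters are not given in the sources used here. Lines that repeat a position were counted as listed. Per the labels' protocols, DNA was cut in 3 digests, amplified by inverse PCR and sequenced. The authors deposited p-values per gene and factor, from a test that the file does not state, and RPKM values of 2 RNA libraries, per the file headers. Gene coordinates came from the deposited expression table (written from 1), strand from the systematic name, and symbols from RefSeq R64, which matched 5817 of 6444 genes. All value columns were assigned. Insertions per window and per bin were tested with Fisher's exact test, two-sided, with Benjamini-Hochberg adjustment over all genes or bins with at least 10 insertions (Python 3.11.15, pandas 2.3.3, SciPy 1.17.1), after a check on simulated data. Ratios are the Mit1 share over the Sfl1 share, with exact 95% intervals of the odds ratio. Reads and insertions are not independent molecules, so intervals cover counting error only.

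The genes and lists were chosen with earlier results of these data known. Named were the 12 loci of smallest p in each direction, up to 10 uncalled loci with at least 20 insertions in each library, all members of the flocculin, heat shock factor, Flo8 and WOPR, and APSES lists, and called members of the other lists. STB3, RHO3, MAL13, ISF1, YIR020W-A, YJR115W, YEH1, MMO1, the bin inside SFL1 and regions without genes were named after their values were seen.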

Additional observations from a re-analysis of the deposited data

How the results depend on the processing

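No paired analysis was possible because each factor had 1 library; for the same reason no library could be left out. Windows, bins, thresholds, totals and the treatment of repeated, shared or low-read positions were varied. The numbers of genes and bins called stayed within 1.5 times the values reported, except that Sfl1 was higher at 62 genes with 600 bp windows and at 41 genes with a minimum of 20 insertions, against 110. Fewer genes were tested in both settings, 160 and 131 against 298. With at least 5 reads 160 genes were tested too, yet 94 were higher in Sfl1. With a minimum of 20, Mit1 was higher at 51 genes and took 55.4% of the calls. The median log2 ratio of the tested genes was then 0.46, against -0.97, so the baseline set beside the gene lists depends on this minimum. The median expression change of genes higher in Mit1 was 0.191 with no minimum RPKM, against 0.296.

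A named gene that fell below the minimum of insertions in a setting gave no value there, as with TUB4, PCL1 and CWP2 without positions richer elsewhere. The counts that follow leave out such losses. Over the 48 named genes that were tested, 508 of 542 values kept their direction and side of the threshold, 19 fell below it, 3 passed it and 12 changed direction. Of these, BSC1 was at 0.949 with each position counted once, 0.921 without positions in both libraries and 0.808 with 2000 bp windows. CLN1 was at 0.549 with at least 2 reads, 0.0599 with at least 5, 0.0520 without positions richer elsewhere and 0.975 with 600 bp windows. SOK2 was at 0.513 with at least 2 reads and TEC1 at 0.0756 without positions richer elsewhere. With 600 bp windows FLO11 was at 0.281 and FLO9 at 0.390, and FLO11 was at 0.238 with the window stopped at the nearest gene. The fraction of low-read Mit1 insertions limits the loci named as lost; genes below 10 insertions could not be compared.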
